A study of Homo sapiens with 18 samples.

Results

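The snoRNA host genes described here are 10 long noncoding RNA genes whose introns carry small nucleolar RNAs: SNHG1, GAS5, SNHG5, SNHG6, SNHG8, SNHG12, ZFAS1, SNHG7, SNHG16 and SNHG15. They were picked by their Ensembl IDs (ENSG00000255717, ENSG00000234741, ENSG00000203875, ENSG00000245910, ENSG00000269893, ENSG00000197989, ENSG00000177410, ENSG00000233016, ENSG00000163597 and ENSG00000232956, in the same order) and are 10 of the 34429 IDs present in all 4 deposited comparison tables. RNA immunoprecipitation sequencing was performed in U373-MG, an established human glioblastoma line. The 18 libraries formed 6 groups of 3 replicates, namely input and FLAG immunoprecipitate (IP) from each of 3 cell populations. The control cells were transduced with an empty retroviral vector carrying antibiotic resistance, the ADAR3 WT cells with FLAG-tagged wild-type ADAR3, and the R-Mutant cells with FLAG-tagged ADAR3 altered in its R-domain. All 3 populations grew in medium with G418 and received 150 mJ/cm2 of crosslinking UV light before they were lysed. ADAR3 was expressed from a vector rather than from its own gene, and the FLAG IP of the control cells held no FLAG-tagged ADAR3, so it measures the RNA recovered without the tagged protein. The labels do not say whether the replicates were separate cultures, so the p-values speak for these libraries alone and their spread may be technical.

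snoRNA host genes are transcribed by RNA polymerase II and spliced, and the excised introns are trimmed into snoRNAs. Box C/D snoRNAs guide ribose methylation and box H/ACA snoRNAs guide pseudouridylation, mostly of ribosomal RNA. The spliced host RNA is left behind as an exonic byproduct with little or no coding capacity. Several host RNAs, GAS5 among them, begin with a terminal oligopyrimidine tract, associate with ribosomes and are degraded by nonsense-mediated decay. ADAR3, encoded by ADARB2, is a relative of the RNA-editing ADAR enzymes that is normally made in brain, binds double-stranded RNA without editing it, and has an arginine-rich R-domain. The study asked how that domain affects the RNAs recovered with ADAR3, and for the host genes the question is whether they are recovered more or less with each form of ADAR3 than with the empty vector.

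The annotated loci differ in the snoRNAs they hold. In the RefSeq annotation of GRCh38.p14 all 10 symbols matched 1 long noncoding RNA gene each. SNHG1 (chr11:62851978-62855885) holds 8 box C/D snoRNA genes, SNORD22 and SNORD25 to SNORD31, and 1 snoRNA gene whose symbol gives no class, while GAS5 (chr1:173863901-173869045) holds 10 box C/D genes and 1 box H/ACA gene, SNORA103. SNHG5 (chr6:85677007-85678733) holds SNORD50A and SNORD50B, SNHG6 holds SNORD87, ZFAS1 (chr20:49278178-49289260) holds SNORD12, SNORD12B and SNORD12C, and SNHG16 (chr17:76557764-76565348) holds SNORD1A, SNORD1B and SNORD1C. The box H/ACA hosts are SNHG8 (chr4:118278762-118279823) with SNORA24, SNHG7 (chr9:136724594-136728184) with SNORA17A and SNORA17B, and SNHG15 (chr7:44983023-44986696) with SNORA9. SNHG12 (chr1:28578538-28582983) holds 1 box C/D gene, SNORD99, beside 3 box H/ACA genes, SNORA16A, SNORA44 and SNORA61. A gene other than a snoRNA overlaps the span of GAS5 (GAS5-AS1 and ZBTB37), SNHG6 (MCMDC2), SNHG12 (TRNAU1AP) and SNHG7 (DIPK1B and LOC124900276). Whether reads were counted by strand is not given in the sources used here, so reads from an overlapping antisense gene cannot be told apart at these 4 loci.

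The start sites are shown because oligopyrimidine starts are a known feature of these genes. RefSeq promoter sequences of GRCh38.p14 were matched for 8 members. Each line gives 90 bases on the gene's strand, 40 before the annotated start and the rest from the start onwards. That start is the one of the promoter annotation. For SNHG12 and ZFAS1 it lies inside the locus span given above, and for the other members shown it is the outer end of the span. Capitals mark the longest run of C and T that begins with C, is at least 5 bases long and begins within 20 bases of the start. The regions are chr4:118278722-118278811 (plus strand) for SNHG8, chr1:28581824-28581913 (minus) for SNHG12, chr9:136728135-136728224 (minus) for SNHG7 and chr11:62855836-62855925 (minus) for SNHG1. They are chr1:173868996-173869085 (minus) for GAS5, chr20:49278602-49278691 (plus) for ZFAS1, chr6:85678684-85678773 (minus) for SNHG5 and chr17:76557724-76557813 (plus) for SNHG16.
SNHG8: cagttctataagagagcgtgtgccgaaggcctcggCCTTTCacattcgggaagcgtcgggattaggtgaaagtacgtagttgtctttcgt
SNHG12: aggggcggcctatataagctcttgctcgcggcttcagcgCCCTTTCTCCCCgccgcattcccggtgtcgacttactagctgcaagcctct
SNHG7: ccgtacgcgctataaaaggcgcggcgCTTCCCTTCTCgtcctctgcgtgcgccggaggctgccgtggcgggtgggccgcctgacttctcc
SNHG1: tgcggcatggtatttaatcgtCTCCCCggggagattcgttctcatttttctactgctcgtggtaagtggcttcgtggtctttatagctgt
GAS5: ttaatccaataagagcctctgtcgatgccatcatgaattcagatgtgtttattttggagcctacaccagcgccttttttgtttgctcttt
ZFAS1: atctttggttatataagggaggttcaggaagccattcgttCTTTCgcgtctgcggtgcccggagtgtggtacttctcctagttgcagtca
SNHG5: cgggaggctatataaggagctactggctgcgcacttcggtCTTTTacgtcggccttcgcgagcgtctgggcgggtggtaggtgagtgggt
SNHG16: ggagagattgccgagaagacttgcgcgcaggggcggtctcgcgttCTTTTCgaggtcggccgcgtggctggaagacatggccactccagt

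A run of that kind was found in 7 of the 8 sequences and in 51.0% of the 35116 promoters in the table, so the rule itself is common. SNHG12 had the longest, 12 bases from the base before the annotated start, while the runs of SNHG5 and ZFAS1 began exactly at the start and were 5 bases long. Relative to the start, the run of SNHG7 (11 bases) began at -14 and that of SNHG1 (6 bases) at -19. Both ended before the start and so lie outside the annotated RNA. The 6-base runs of SNHG8 and SNHG16 began at -5 and 5. The GAS5 sequence had none within 20 bases of its annotated start, and its longest run after the start, 8 bases long, began 31 bases after it, outside that window. The letters TATAA began between 35 and 25 bases before the start, on the gene's strand, in 5 of the 8 (SNHG5, SNHG8, SNHG12, ZFAS1 and SNHG7) and in 3.57% of all promoters, a window chosen after the sequences had been seen. On either strand of the full 300 bases TATAA was found in 6 of 8 members and in 20.4% of promoters. A run and the TATAA of that window were both present in SNHG8, SNHG12 and SNHG7, which passed the test in the IP. Both were also present in SNHG5 and ZFAS1, which did not pass. That TATAA was absent from SNHG1 and GAS5, which passed, and from SNHG16, which did not. Whether the start sequence bears on the IP values was not tested.

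An IP enrichment value compares genotypes: each has its own ratio of IP to input, and the value is the log2 quotient of 2 such ratios. This reading rests on the tables' names and on their dependence on the input, not on the labels. Counts were normalized between libraries, so every value is relative to the other RNAs, and less RNA of one kind in the IP cannot be told apart from more of the rest. Fold changes and standard errors are those of the authors' deposited tables, which give 1 value per gene and comparison, and values per library were not analysed here. Called means that a two-sided normal test of fold change divided by standard error, both on the log2 scale, with Benjamini-Hochberg adjustment over all genes tested, gave an adjusted p under 0.05. All 10 members were among the genes tested in each table. Their mean normalized counts ran from 282 (SNHG15) to 3869 (GAS5) in the authors' deposited table of ADAR3 WT over control, against a median of 235 over all genes tested, and their standard errors there from 0.20 to 0.37.

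Most, but not all, of the host RNAs were recovered less with ADAR3 WT than with the empty vector. Of the 10 members, 7 were less enriched in the IP of ADAR3 WT cells than of control cells and 0 were more enriched, where 8.14% of the 21121 genes tested were called lower and 5.99% higher. The 7 were SNHG8, SNHG12, SNHG7, SNHG1, GAS5, SNHG15 and SNHG6, and each had a log2 fold change below -1, as did 10.2% of all genes tested. All 10 log2 fold changes lay below 0, with a median of -1.24, while the median over all genes tested was 0.01 and 49.3% of them lay below 0. The members lay in the upper 3 of 5 groups of genes by mean count, and the median of all genes in the highest 2 groups was -0.11 and -0.05.

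SNHG8, host of SNORA24, had the largest fall of the 10. Its log2 fold change in the authors' deposited table was -2.83 ± 0.25 (standard error), or 7.11-fold lower, with a 95% interval of 5.05-fold to 10.0-fold lower (adjusted p = 4.25e-26 by the normal test). Of the 21121 genes tested, 176 had a lower fold change. SNHG12, host of 4 snoRNAs of both classes, followed at -1.86 ± 0.24 in the authors' deposited table, or 3.62-fold lower (adjusted p = 9.84e-13 by the normal test). SNHG7, host of the SNORA17 pair, stood at -1.80 ± 0.37 in the authors' deposited table, or 3.48-fold lower (adjusted p = 3.59e-05 by the normal test), with the widest standard error of the 10. These 3 genes all host box H/ACA snoRNAs, and SNHG8 stood below SNHG12 by 0.98 with a 95% interval of 0.30 to 1.65 on the log2 scale.

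The multi-snoRNA host SNHG1, also known as UHG, was 3.05-fold lower, at -1.61 ± 0.25 in the authors' deposited table (adjusted p = 2.12e-08 by the normal test). GAS5, named for its accumulation in growth-arrested cells, was 2.37-fold lower, at -1.25 ± 0.21 in the authors' deposited table (adjusted p = 5.21e-07 by the normal test). These are the members with the most intronic snoRNAs. Both fell less than SNHG8, which has 1, but neither fell less than SNHG15 (-1.23) or SNHG6 (-1.09), which also have 1 each. A link with the number of snoRNAs was not tested. SNHG15, host of SNORA9 and the member with the lowest mean count, was 2.35-fold lower, at -1.23 ± 0.31 in the authors' deposited table (adjusted p = 0.00108 by the normal test). SNHG6, host of SNORD87, was 2.13-fold lower, at -1.09 ± 0.26 in the authors' deposited table (adjusted p = 0.000512 by the normal test).

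The remaining 3 members did not pass. ZFAS1, a head-to-head neighbour of ZNFX1 and host of the SNORD12 family, had -0.48 ± 0.20 in the authors' deposited table (adjusted p = 0.098 by the normal test). SNHG5, host of the SNORD50 pair, had -0.38 ± 0.22 in the authors' deposited table (adjusted p = 0.282 by the normal test). SNHG16, host of the SNORD1 family, had -0.21 ± 0.22 in the authors' deposited table (adjusted p = 0.617 by the normal test). The 95% intervals of these 3 lay within a 2-fold difference in either direction, so a fall as large as that of SNHG12 or SNHG8 lies outside them. A missed threshold does not show that their enrichment was equal to control.

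**Figure D1:**
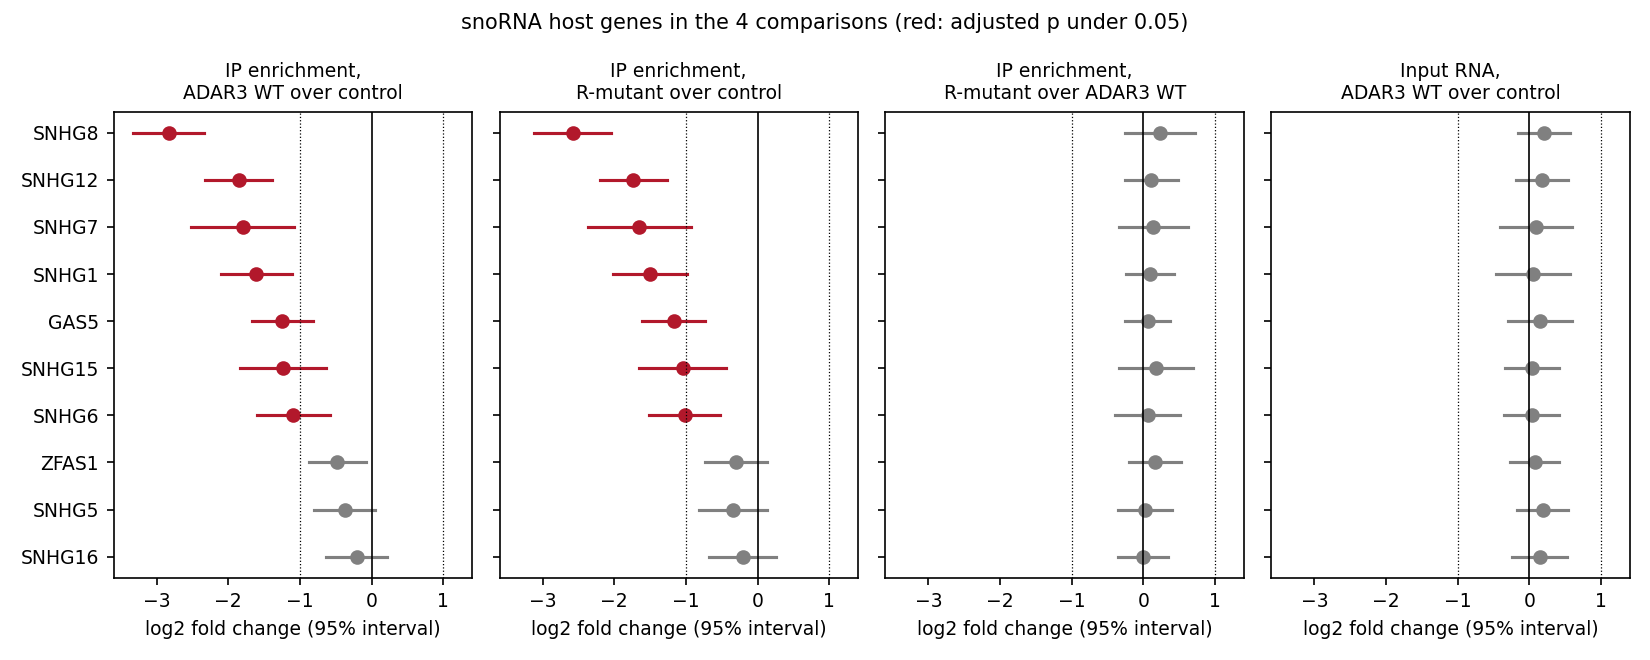
Log2 fold change of each host gene (points) with its 95% interval (lines) in the 4 deposited comparisons, with dotted lines at a 2-fold difference and red for an adjusted p under 0.05. In both comparisons with control 7 genes are red, led by SNHG8 at -2.83 and -2.58, and in the other comparisons all 10 intervals lie inside the dotted lines.

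The same members had lower IP enrichment with the R-Mutant than with control. The called members were again SNHG8, SNHG12, SNHG7, SNHG1, GAS5, SNHG15 and SNHG6, 7 lower and 0 higher, where 7.95% of the 21120 genes tested were called lower and 5.38% higher. This comparison uses the same control libraries as that of ADAR3 WT, so the second list is not independent of the first. The median log2 fold change of the 10 members was -1.11, against 0.03 over all genes tested. SNHG8 stood at -2.58 ± 0.27 in the authors' deposited table, or 5.99-fold lower (adjusted p = 4.70e-18 by the normal test), and 233 genes had a lower fold change. SNHG12 was 3.33-fold lower (adjusted p = 9.67e-11 by the normal test), SNHG7 was 3.14-fold lower (adjusted p = 0.000216 by the normal test) and SNHG1 was 2.83-fold lower (adjusted p = 9.86e-07 by the normal test).

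The other called members were close to a 2-fold fall with the R-Mutant. GAS5 was 2.25-fold lower, at -1.17 ± 0.23 in the authors' deposited table (adjusted p = 1.18e-05 by the normal test). SNHG15 was 2.06-fold lower, at -1.04 ± 0.31 in the authors' deposited table (adjusted p = 0.00947 by the normal test). SNHG6 was 2.02-fold lower, at -1.02 ± 0.25 in the authors' deposited table (adjusted p = 0.00129 by the normal test). SNHG5, ZFAS1 and SNHG16 had -0.34 ± 0.24, -0.30 ± 0.22 and -0.21 ± 0.24 in the authors' deposited table and did not pass (adjusted p from 0.406 to 0.653 by the normal test).

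**Figure D2:**
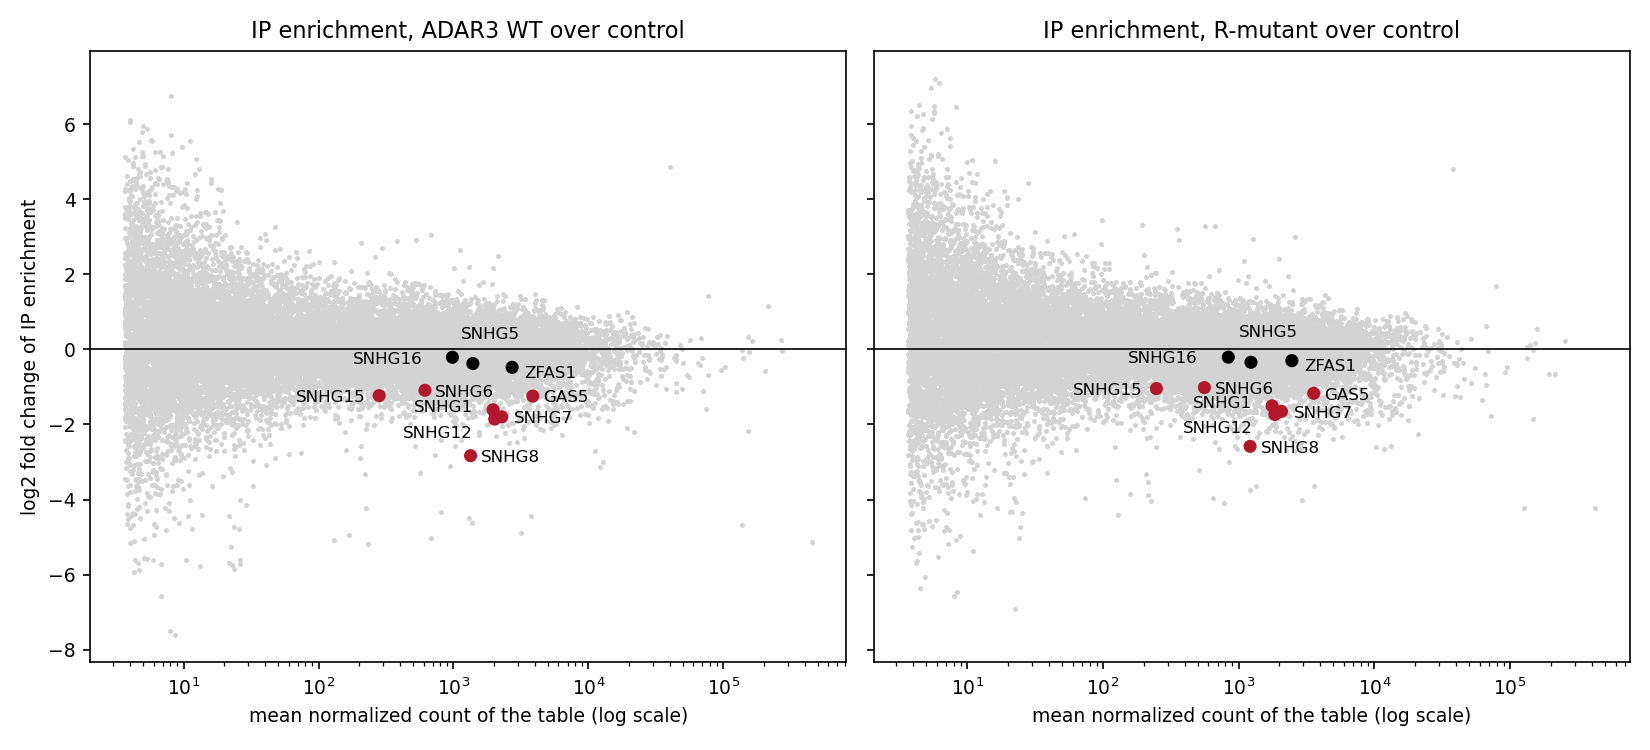
Log2 fold change of IP enrichment against mean normalized count (log axis) for all genes tested (grey) and the 10 host genes (red where called lower, black otherwise), with ADAR3 WT on the left and the R-Mutant on the right. SNHG8 lies near the lower edge of genes of its mean count, at -2.83 and -2.58, and SNHG5, ZFAS1 and SNHG16 lie between -0.48 and -0.21.

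The number of members called depended on the test. Fold over standard error had a wide spread across all genes, and when it was rescaled to that spread, 4 members were called lower for ADAR3 WT, where 1.42% of all genes were, and 3 for the R-Mutant, where 1.25% were. SNHG8, SNHG12 and SNHG1 were called in both, and SNHG6, SNHG7 and SNHG15 in neither. By the authors' adjusted p, which comes from a likelihood ratio test that covers more terms than the fold change, 8 members passed with a fold change below 0 in each of the authors' deposited tables against control. The background share of all genes was 23.7% for ADAR3 WT and 23% for the R-Mutant, and the added member was SNHG5.

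The members fell into an order that was only partly resolved. Treating the standard errors of different genes as independent, the 95% interval of the difference excluded 0 for 27 of 45 pairs with ADAR3 WT and for 26 of 45 with the R-Mutant. Among the 9 pairs of neighbours in the order, the only such pair was SNHG8 and SNHG12, in both comparisons. From SNHG12 through SNHG7, SNHG1, GAS5 and SNHG15 to SNHG6, no neighbours differed beyond their errors, and nor did ZFAS1, SNHG5 and SNHG16. Between SNHG6 and its next neighbour the difference was 0.61 for ADAR3 WT, with an interval of -0.03 to 1.25, and 0.67 for the R-Mutant, with an interval of -0.01 to 1.36. Over all pairs of a called and an uncalled member, the interval excluded 0 for 20 of 21 with ADAR3 WT, the exception being SNHG6 and ZFAS1. It did so for 19 of 21 with the R-Mutant, where SNHG15 and SNHG6 were not separated from SNHG5. Called and uncalled were set by these same fold changes and errors, so such counts describe the order and do not show separate groups. The intervals were not adjusted for the number of pairs.

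The members were also described by the class of the snoRNAs they host. All 5 members with at least 1 box H/ACA gene (SNHG8, SNHG12, SNHG7, GAS5 and SNHG15) were called lower with ADAR3 WT, with a median log2 fold change of -1.80 and a range of -2.83 to -1.23. Of the 5 members with box C/D genes and no gene named as box H/ACA, SNHG1 and SNHG6 were called lower. The median of these 5 was -0.48 with a range of -1.61 to -0.21. SNHG1 also holds 1 snoRNA gene whose symbol gives no class, so its place in the box C/D class is not certain. With the R-Mutant the medians were -1.65 and -0.34. The split was made after the fold changes had been seen, it places GAS5 by 1 box H/ACA gene beside 10 box C/D genes, and SNHG1 in the box C/D class lies below GAS5 and SNHG15, so it is given as a description with no test. By span, the shortest locus, SNHG8 at 1062 bp, had the lowest value, and the longest, ZFAS1 at 11083 bp and SNHG16 at 7585 bp, were among those not called, as was the short SNHG5 at 1727 bp.

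**Figure D3:**
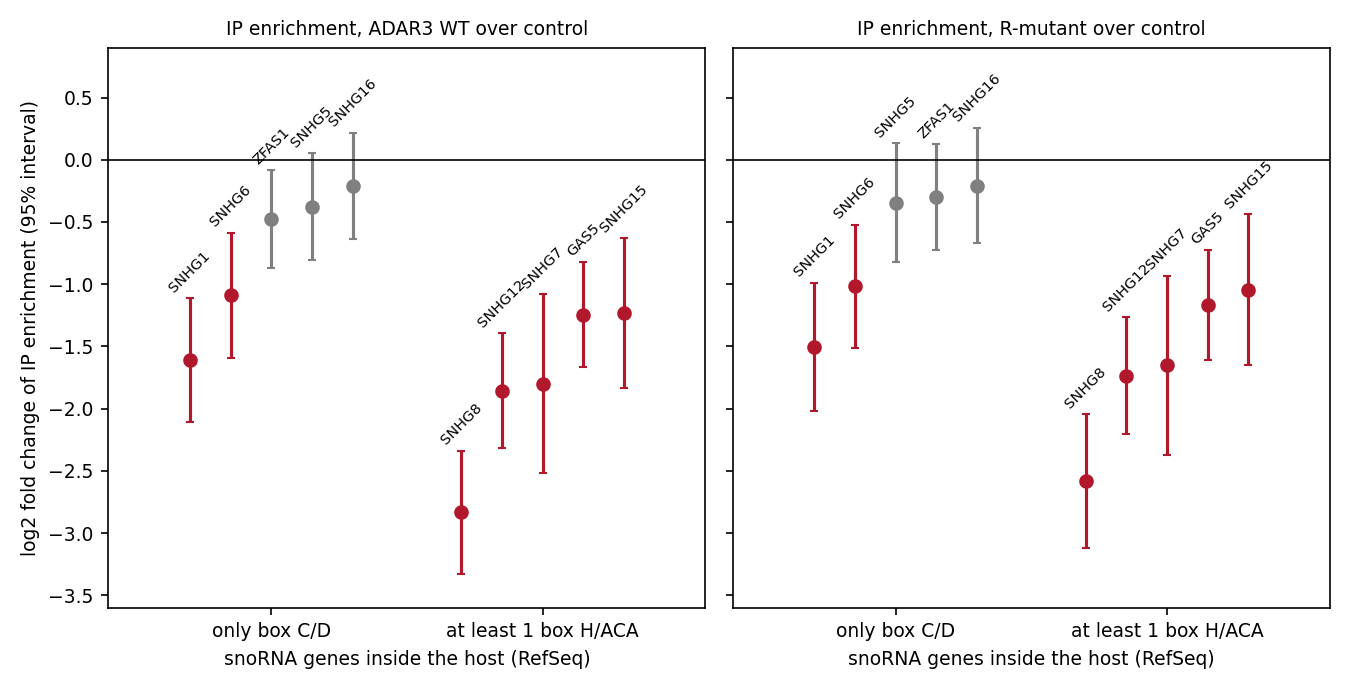
Log2 fold change of IP enrichment (points) with 95% intervals (bars), red where called lower. The first class, labelled only box C/D, has no gene named as box H/ACA, but SNHG1 in it also holds 1 snoRNA gene of unstated class. The second class has at least 1 box H/ACA gene. All 5 of the second class are red in both panels, against 2 of the first, SNHG1 and SNHG6.

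Mutation of the R-domain gave no called difference in the recovery of these RNAs. When the R-Mutant was set directly against ADAR3 WT, 0 of 10 members were called by the normal test, where 0% of 23385 genes were called higher and 0.00428% lower. None, 0 of 10, had an unadjusted p under 0.05, which 0.239% of all genes had with a higher and 0.385% with a lower value. These shares are far below what a threshold of 0.05 would give without any difference. The normal test was therefore cautious here, and the lack of calls is weak evidence of equal recovery. The log2 fold changes in the authors' deposited table ran from -0.01 ± 0.18 for SNHG16 to 0.24 ± 0.25 for SNHG8, with a median of 0.10 against -0.02 over all genes tested. For SNHG8 the R-Mutant to ADAR3 WT ratio was 1.18, with a 95% interval of 0.838 to 1.65. Of the 10 values 9 lay above 0, where 46.1% of all genes did, but none stood beyond its error. All 10 intervals excluded a 2-fold difference in either direction, where 55.2% of all genes tested did so.

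This direct comparison adds little to the other IP tables. For each member the direct value equalled the R-Mutant value minus the ADAR3 WT value to within 0.015 on the log2 scale. Over the 13431 genes whose mean reached 50 in the 3 IP tables, the same gap had a median of -0.0135. Its percentiles 5 and 95 were -0.0168 and -0.0113, so the close match is not particular to the host genes. The authors' adjusted p was under 0.05 for all 10 members in the authors' deposited table, 9 with a fold change above 0 and 1 below, where 21.5% and 29.6% of all genes tested passed in those directions. For SNHG1 it was 1.81e-100 in the authors' deposited table, beside a log2 fold change of 0.09 ± 0.17. That likelihood ratio test covers further terms, so its p-value is not one for the difference between the R-Mutant and ADAR3 WT.

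In the input, no host RNA differed in level past the threshold when ADAR3 WT was compared with control. Of the 10 members, 0 were called by the normal test and 0 by the authors' adjusted p, where 0.103% of the 20411 genes tested were called higher and 0.186% lower by either. An unadjusted p under 0.05 was found for 0 members, and for 0.926% of all genes with a higher and 1.99% with a lower value. These shares too are below what that threshold would give without any difference, so the test was cautious. All 10 log2 fold changes lay above 0, as did those of 56.6% of all genes, and the median of the members was 0.12 against 0.03. The highest was that of SNHG8, at 0.21 ± 0.18 in the authors' deposited table, followed by SNHG5 at 0.19 ± 0.18 and SNHG12 at 0.18 ± 0.19. The lowest were SNHG6 at 0.03 ± 0.20 and SNHG15 at 0.03 ± 0.19 in the authors' deposited table. All 10 intervals excluded a 2-fold difference, where 66.8% of all genes tested did so. The input of ADAR3 WT and of control also stands in the denominator of the IP ratio, and the part of the input in the IP values was not tested.

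The mean counts of the tables with and without control libraries were also set side by side. The table of ADAR3 WT over control includes control libraries, by its name, and that of R-Mutant over ADAR3 WT does not. Over the 13431 genes whose mean reached 50 in the 3 IP tables, the mean normalized count of the first was 0.944 times that of the second at the median. For the host genes this ratio was 0.974 to 1.47, above that median for all 10. It was highest for SNHG7, with a mean of 2280 against 1556 in the authors' deposited tables, and for SNHG8, with 1339 against 983. It was lowest for SNHG5, with 1393 against 1430 in the authors' deposited tables, and SNHG16 and ZFAS1 came next. These means come from the same libraries as the fold changes, the tables were normalized separately, and the libraries behind each mean are not listed, so the ratio is a description and no second test.

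**Figure D4:**
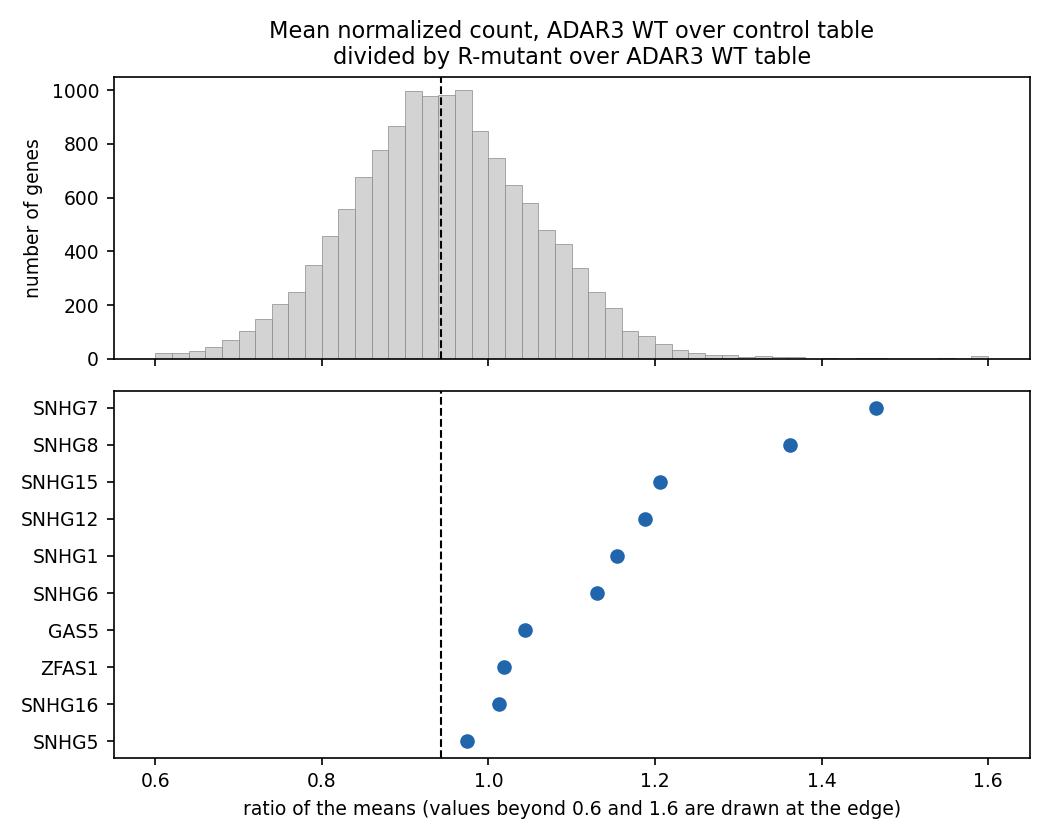
Ratio of mean normalized counts, table of ADAR3 WT over control divided by table of R-Mutant over ADAR3 WT, as a histogram over 13431 genes (top) and for each host gene (bottom), with a dashed line at the median of 0.944. SNHG7 at 1.47 and SNHG8 at 1.36 lie farthest to the right, and SNHG5 at 0.974 is nearest to the line.

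The pattern of the members was also compared with single genes of the whole series. Over the log2 fold changes for ADAR3 WT against control, R-Mutant against control and the input, the members' medians were -1.24, -1.11 and 0.12. Among 13284 genes whose mean reached 50 in all 4 tables, the nearest outside the members by Euclidean distance were ENSG00000196465 at 0.0528 and ENSG00000232759 at 0.0544. GAS5 lay at 0.0701, the nearest of the members, with 4 other genes nearer, while SNHG8 lay at 2.17. The centre is the members' own median, so members of middle rank, such as GAS5, lie near it by construction. The 2 IP values share control libraries, and nearness over 3 values says nothing of shared function.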

How the data were processed

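Per the submitters' processing notes, the authors used STAR 2.7.7a, featureCounts, DESeq2 and GRCh38. The annotation, the model formula and which libraries entered a model are not stated in the labels. Per the labels' protocols, libraries kept strand and were made from rRNA-depleted RNA with 15 PCR cycles. Per the file headers, the 4 deposited tables hold a mean signal (mean of normalized counts), log2 fold changes and their errors, a test statistic (a score) and p-values, with adjusted p-values absent for low means. Depth per library is unknown, and 6 per-library columns that match no label were not used.

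Fold change divided by standard error was tested against the normal distribution, with Benjamini-Hochberg adjustment at 0.05 over every gene with a deposited adjusted p-value, and gave the 95% intervals. The IP values were read as ratios of IP to input from their slope on the input fold change among genes with an input mean under 10 (-0.88 with ADAR3 WT against control, 0.44 with the R-Mutant against ADAR3 WT). The members, gene lists and this test were chosen with earlier results of these data known. All members are named, and nearest genes were taken by Euclidean distance. The reference paired 0 of its 59792 genes with Ensembl IDs, so 7 further gene and marker lists (other, protein-coding and intronic snoRNA genes, snoRNP proteins, decay factors, glial markers, markers of other cells) and the transgene were not looked up, and the cell line was not checked against markers. Python 3.11.15 was used with scipy 1.17.1, numpy 2.4.6, statsmodels 0.14.6, pandas 2.3.3 and matplotlib 3.10.9, and the procedure was tested on simulated data. Alternatives were the authors' adjusted p, a threshold of 0.01, a 2-fold minimum, a minimum mean of 50, no filter, 2 centrings and a rescaled statistic.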

Additional observations from a re-analysis of the deposited data

How the results depend on the processing

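No paired analysis was possible because no per-library column could be matched to a label, and so no replicate was left out and no count model was refitted. Rescaling fold over standard error to its spread across genes left 4 members lower for ADAR3 WT over control and 3 for R-Mutant over control, where 1.42% and 1.25% of all genes were called lower. By the authors' adjusted p, 9 members passed with a higher and 1 with a lower value in R-Mutant over ADAR3 WT, in a test that covers more terms than the fold change. The other settings gave counts of members within 1.5 times those reported, in all 4 comparisons. Of 320 combinations of member, comparison and setting, 297 kept their direction and their side of the threshold. Centring turned the sign of small values that were not called: SNHG16 in R-Mutant over ADAR3 WT became 0.0071 relative to all genes and 0.0095 relative to genes of like mean, and in input SNHG1 became -0.0063 and SNHG6 became -0.026 relative to genes of like mean. What caused these moves was not tested. The standard errors of the members, 0.16 to 0.37 on the log2 scale over the 4 tables, set what could be seen.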
